A study of Homo sapiens with 4 samples.

Results

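BMP1, BMP7, GDF1, GDF15 and IGF2 are 5 genes for secreted growth factors or, in the case of BMP1, for an enzyme released beside them. They were selected by symbol from the authors' table of differential ac4C peaks, and their Ensembl identifiers were then looked up in the peak lists of each condition. The 5 genes stood among 2483 genes with a differential peak and had 5 of the 2807 differential peaks, 1 for each gene. They had 10 of the 6403 peaks listed for the control cells and 9 of the 6417 peaks listed for the knockdown cells. The lists carry the prefixes of the sample titles, WTG and KOG, and each list was given the condition that the labels record for the samples of that prefix.

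The peaks came from acRIP-seq of FaDu, an established human cell line derived from a hypopharyngeal squamous carcinoma. One population carried a control shRNA (shNC) and the other an shRNA against NAT10 (shNAT10), and per the study's methods stable depletion used the lentiviral pLKO.1-puromycin vector. Per the same methods, total RNA was broken into short fragments and pulled down with an antibody against ac4C (IP). The paper's results name mRNA as the material instead, so which was used is not settled here. There was 1 IP and 1 input library in shNC and the same in shNAT10. Which NAT10 hairpin was used is not given in the sources used here. With no second library in either condition, no difference between shNC and shNAT10 could be tested, and every value below describes these 4 libraries. Whether NAT10 RNA was lowered in these libraries could not be seen, as the peak tables hold no RNA level. For the FaDu knockdown cells of its mouse model, the paper reports a loss of NAT10 by qRT-PCR and western blotting. Whether the libraries came from those same cells is not stated. NAT10 itself had a differential peak near its 3′ end, listed in both conditions, with a fold enrichment of 6.91 in shNC and 12.0 in shNAT10. Of the 10 squamous epithelial markers looked up, 5 had a listed peak, and of the 6 markers of other cells only COL1A1 had one. The 5 were TP63, SFN, DSP, JUP and PERP, while none was found for KRT5, KRT6A, KRT14, KRT17 or CDH1. Genes without a differential peak were named by position and may have been missed, and a peak is not a measure of expression.

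N4-acetylcytidine (ac4C) is an acetylated form of cytidine in RNA, and NAT10 is the enzyme that writes it. BMP7, GDF1 and GDF15 are ligands of the TGF-β superfamily, which act through paired serine/threonine kinase receptors and SMAD transcription factors, except that GDF15 signals through GFRAL and RET. BMP1 is not a ligand of that family but an astacin metalloprotease, the procollagen C-proteinase, which also releases BMPs by cutting their inhibitor chordin. IGF2 is an imprinted insulin-like growth factor that acts on the IGF1 and insulin receptors. The mRNA of GDF1 is bicistronic with CERS1, a ceramide synthase, and read-through transcripts join INS to IGF2.

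A single sequence of these peaks was at hand, and it is shown because it places the GDF15 peak at the start codon. The first 30 bases of the GDF15 differential peak, chr19:18386171-18386200 on the plus strand (RefSeq, GRCh38.p14), are printed 5′ to 3′ with the first ATG, which opens the GDF15 reading frame, in capitals.
GDF15: agccgcaacctgcacagccATGcccgggca
The ATG lies at chr19:18386190-18386192, and 13 of the 30 bases are C. The table of differential peaks names a 12-nt motif in which C is followed by any 2 bases, 4 times in a row. The 37 bases that this peak shared with the promoter window on the transcribed strand held 0 matches to that motif, and 18.3% of all 35116 promoter windows held a match in their last 37 bases.

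The differential peaks of the 5 genes fell into 3 patterns by the lists that held a peak at the same place. BMP7, GDF15 and IGF2 had a peak there in the shNAT10 list only, GDF1 had one in the shNC list only, and BMP1 had one in each list. Over all 2807 differential peaks, 27.3% overlapped a shNAT10 peak only, 32.2% a shNC peak only and 40.4% a peak of both lists. Since the genes were chosen from this table, nothing is read from their own counts against these shares. A peak absent from a list was not called there, which is not a measurement of 0. Fold enrichment is IP over input within 1 condition, and how the libraries were scaled to each other is not given in the sources used here.

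**Figure D1:**
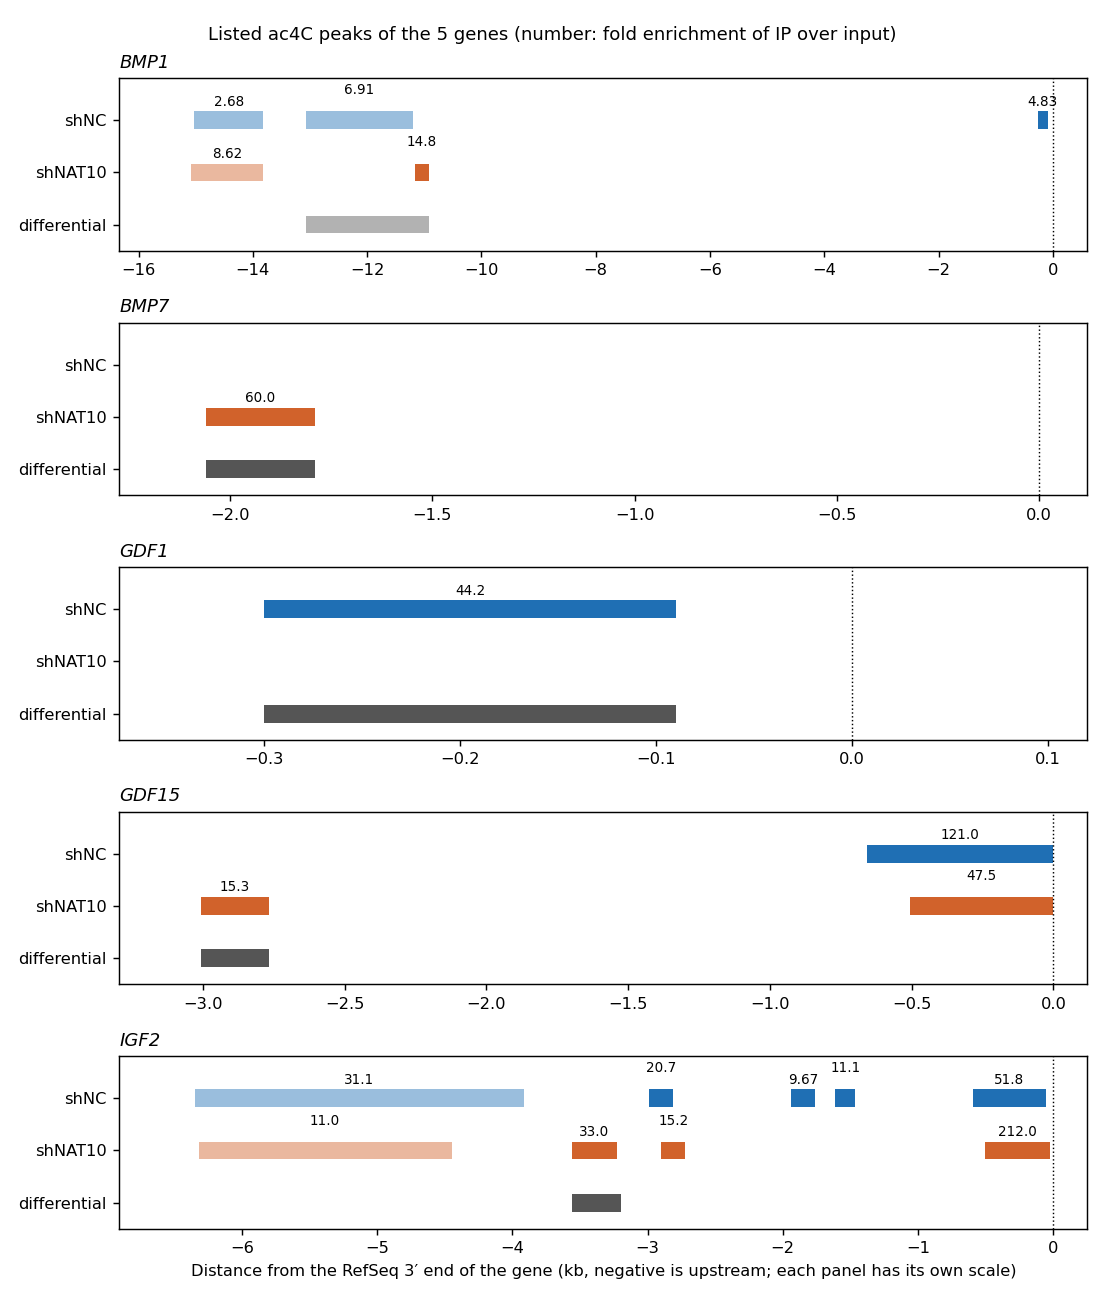
Positions of the listed peaks (blue, shNC; orange, shNAT10) and of the differential peak (grey) in each gene, as distance in kb from the RefSeq 3′ end, with the fold enrichment of IP over input above each listed peak. Pale bars span several exonic blocks and the intron between them. BMP7 has a bar in the shNAT10 row only and GDF1 in the shNC row only.

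BMP7 (ENSG00000101144, minus strand), a ligand known for its part in kidney and bone development, had the highest fold enrichment of the 5 genes at a differential peak. The peak lay in the 3′-UTR at chr20:57170544-57170813, 270 nt long in 1 exonic block and 1791 nt inside the RefSeq 3′ end. The shNAT10 list gave it a fold enrichment of 60.0 (peak-calling p-value of 2e-18, which compares IP reads with input reads of 1 condition and not the conditions), above 94.7% of the peaks of that list. No BMP7 peak was listed in shNC, at this place or elsewhere in the 97.9 kb gene. This peak had no listed motif site.

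GDF1 (ENSG00000130283, minus strand), which acts in left-right patterning of the embryo, was the only one of the 5 genes with a peak in shNC and none in shNAT10. Its peak lay in the CDS at chr19:18868635-18868845, 211 nt long and 90 nt from the RefSeq 3′ end. The fold enrichment in shNC was 44.2 (peak-calling p-value of 6.3e-14), above 89.8% of the shNC peaks. The same peak was listed under CERS1 at chr19:18868634-18868843 with the same fold enrichment, and both genes end at the same base. Reads of this place therefore cannot be assigned to GDF1 rather than CERS1. CERS1 had a further peak that was not listed under GDF1, with a fold enrichment of 166 in shNC and 44.8 in shNAT10. It was 3.71 times higher in shNC. This peak, chr19:18877945-18878153 in shNAT10, also lies inside the RefSeq bounds of GDF1, so the listing under CERS1 alone does not show that it is absent from the bicistronic mRNA.

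GDF15 (ENSG00000130513, plus strand), a cytokine induced by cell stress, had peaks at both ends of its 3.02 kb gene. The differential peak at the 5′ end, chr19:18386171-18386409, began 13 nt after the RefSeq start, was classed as CDS and ran over the start codon printed above. It was listed in shNAT10 with a fold enrichment of 15.3 (peak-calling p-value of 2.5e-26), and the nearest shNC peak lay 2110 nt away. The peak at the 3′ end was listed in both conditions, from 18388520 in shNC and from 18388669 in shNAT10 to the last base of the gene at 18389176. Its fold enrichment was 121 in shNC and 47.5 in shNAT10, 2.55 times higher in shNC. At the 5′ end no shNC value exists to compare with, and at the 3′ end the higher value was in shNC. The 3′ peak exceeded 98.6% of the shNC peaks and 91.8% of the shNAT10 peaks, whereas the 5′ peak exceeded 60.1% of the shNAT10 peaks.

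IGF2 (ENSG00000167244, minus strand) carried more listed peaks than nearly all genes, though several were weak or also listed under another gene, as given below. It had 5 in shNC, a number reached by 13 of 4977 genes (0.261%), and 4 in shNAT10, reached by 50 of 4987 genes (1.0%). The differential peak was in the 3′-UTR at chr11:2132316-2132675, 360 nt long and 3199 nt from the RefSeq 3′ end. There the shNAT10 list had a peak with a fold enrichment of 33.0 (peak-calling p-value of 5.2e-10), above 84.4% of its peaks, and the nearest shNC peak lay 209 nt away. That neighbour, chr11:2131927-2132106, stood at 20.7 in shNC and overlapped by 90 nt a shNAT10 peak of 15.2. It was thus enriched in both lists, with a ratio of 0.734.

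The remaining IGF2 peaks did not move together. The peak at the 3′ end of the gene, chr11:2129172-2129711 in shNC and 2129142-2129621 in shNAT10, had a fold enrichment of 51.8 in shNC and 212 in shNAT10, 4.09 times higher in shNAT10 and above 99.8% of the peaks of that list. The peak farthest upstream had 31.1 in shNC over 3 exonic blocks and 11.0 in shNAT10 over 2 blocks, 2.83 times higher in shNC. In shNC alone, weaker peaks at chr11:2130579-2130729 and 2130879-2131058 had fold enrichments of 11.1 and 9.67. Their FDR within the list was 0.015 and 0.035, and their values were listed at 78 and 90 other genes. Along the gene the higher value was therefore in shNAT10 at the end of the 3′-UTR and in shNC at the most upstream peak.

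IGF2 peaks are also shared with other genes. The differential peak was listed under INS-IGF2 at chr11:2132318-2132676 with the same fold enrichment, and so were the peaks of 20.7, 15.2 and 11.0. The upstream shNC peak was listed under INS-IGF2 too, at 34.5. The peak at the 3′ end was also listed under ENSG00000240801, an identifier that these tables pair with no symbol. Of the 5 differential peaks, those of GDF1 and IGF2 overlapped a differential peak of another gene, as did 147 of the 2807 in all (5.24%, 95% Wilson interval 4.47 to 6.12, counting error only). The overlaps with CERS1 and INS-IGF2 were looked for from the outset, so nothing is read from them against that share.

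BMP1 (ENSG00000168487, plus strand) was the only one of the 5 genes whose differential peak had listed peaks of both conditions under it, but they did not overlap each other. The differential peak, chr8:22199253-22201401, was classed as 3′-UTR, spanned 2 exonic blocks of 419 nt in all and lay 10.9 kb inside the gene's 3′ end. The shNC peak covered 151 nt at its 5′ side and had a fold enrichment of 6.91, while the last 240 nt were covered by the shNAT10 peak, at 14.8. The shNC peak was weak: its p was 0.026 and its FDR 0.19 within the list, against a p of 1.3e-28 for the shNAT10 peak. Of the 19 listed peaks of the 5 genes, 1 had an FDR above 0.05, and it was this one. The lists as a whole had 8.12% (shNC) and 8.32% (shNAT10) such peaks. A further BMP1 peak ending at 22198506 was listed in both conditions, with 2.68 in shNC and 8.62 in shNAT10, 3.22 times higher in shNAT10. A peak of 4.83, 90 nt from the gene's 3′ end, was listed in shNC only. BMP1 thus had its higher value in shNAT10 at the 1 place where peaks of both lists overlapped. Its values at the differential peak belong to different stretches, and its peak near the gene's end was listed in shNC only.

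**Figure D2:**
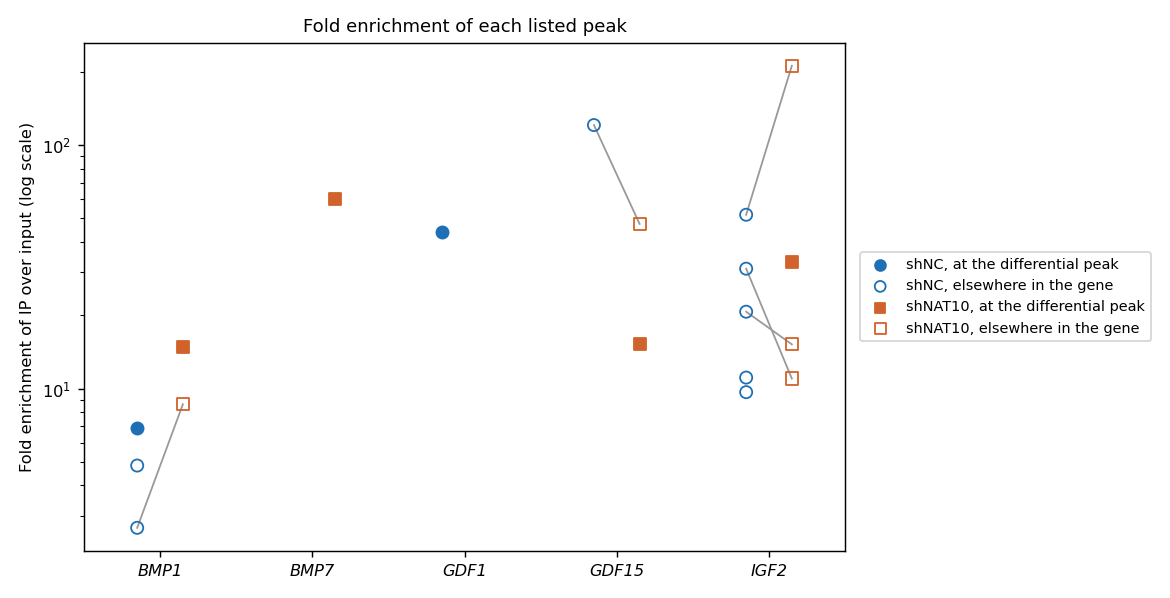
Fold enrichment of IP over input (log axis) for each listed peak of the 5 genes, circles for shNC and squares for shNAT10, filled where the peak overlaps the differential peak. Grey lines join overlapping peaks of both lists: those of BMP1 and the 3′ end of IGF2 rise from shNC to shNAT10, and those of GDF15 and the other 2 IGF2 places fall.

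Several of these values recur elsewhere in the lists. The BMP1 shNC values at the differential peak (6.91 with a p-value of 0.026) were listed at 83 other genes, and those of the most upstream IGF2 peak in shNAT10 (11.0 with a p-value of 0.0021) at 108 other genes. Of the 19 listed peaks of the 5 genes, 11 had a fold enrichment and p that another gene shared, overlapping genes included, as did 46.5% of all shNC and 48.7% of all shNAT10 peaks. The other 8 comprised every peak of BMP7 and GDF15, both shNAT10 peaks and 1 shNC peak of BMP1, and the shNC peak at the 3′ end of IGF2. The tables give no read counts, so the depth behind a peak is unknown.

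Where peaks of both conditions overlapped, their fold enrichments were set side by side. There were 5 such pairs in the 5 genes, from BMP1, GDF15 and IGF2, and 3421 over all genes. Across all pairs the ratio of shNAT10 over shNC had a median of 0.94, with quartiles of 0.492 and 1.81. The ratios of the 5 pairs were 4.09 (IGF2, 3′ end), 3.22 (BMP1), 0.734 (IGF2), 0.393 (GDF15) and 0.354 (IGF2, upstream), at percentiles 91.8, 88.0, 39.0, 18.7 and 16.1 of all pairs. All 5 lay between the 5% and 95% quantiles of 0.168 and 5.84. At a fold of at least 2, 2 of 5 were higher in shNAT10 against 22.3% of all pairs, and 2 of 5 were higher in shNC against 25.5%. The 5 pairs come from 3 genes and are too few to set against those shares, and 0 of the 5 overlapped a differential peak of its gene.

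By transcript region, the differential peaks of BMP1, BMP7 and IGF2 were classed as 3′-UTR and those of GDF1 and GDF15 as CDS. Among all differential peaks 56.1% were classed as 3′-UTR and 19.4% as CDS. Their lengths of 211 to 419 nt stood beside a median of 241 nt, and 4 of the 5 had 1 exonic block, as did 73.1% of all. The table also gives 1 fold enrichment per differential peak, with no condition named. It was 20.6 for BMP7, 17.2 for GDF1, 16.0 for IGF2, 11.3 for BMP1 and 6.62 for GDF15, beside a median of 9.75 over all differential peaks.

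BMP1 had 5 listed sites of the C-rich motif, IGF2 had 4 and GDF1 had 3, whereas BMP7 and GDF15 had none. Of all differential peaks 60.9% (95% Wilson interval 59.1 to 62.7) had at least 1 site and 22.1% (20.6 to 23.6) had at least 3. The density was 1.42 sites per 100 nt in GDF1, 1.19 in BMP1, 1.11 in IGF2, 0 in BMP7 and GDF15 and 0.8 over the 5 peaks together, beside 0.53 over all differential peaks. With only 5 chosen peaks, nothing is read from these counts and densities against those of all differential peaks. Motif sites stood in peaks of either condition: all 3 GDF1 sites lay in the peak listed in shNC, and all 4 IGF2 sites in the peak listed in shNAT10. In BMP1, 1 site lay wholly in the shNC peak and 2 wholly in the shNAT10 peak. The remaining 2 BMP1 sites, at 22201132-22201143 and 22201150-22201161, fell between them, the first sharing 2 nt with the shNC peak. At the 5′ end of the IGF2 peak, the sites at chr11:2132663-2132674 and 2132651-2132662 stood back to back. BMP7, with the highest fold enrichment of the 5 in the table of differential peaks, and GDF15, with the lowest of the 5 there, were the pair without a site.

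The pathways around these genes were covered by lists of 123 genes, including the 5 themselves. A differential peak was present for 16 of the 123, and 38 had a peak in either list. The 16 are 42.1% of the 38, beside 36.9% of all 6723 gene identifiers with a listed peak. Identifiers without a differential peak were named by position and not always found, and the 5 genes were chosen for having such a peak, so nothing is read from this difference. Among TGF-β superfamily ligands 3 of 33 had a differential peak, namely BMP7, GDF1 and GDF15. INHBB and AMH, named after their values were seen, were the other ligands with any listed peak. None of the 17 receptors and none of the 8 SMADs had a differential peak. In each of these lists only 4 genes had any listed peak, too few to set against the 36.9%. Single peaks of SMAD2, SMAD3, SMAD4 and SMAD6, also named after their values were seen, were listed in shNC, with fold enrichments of 8.98, 4.49, 6.22 and 29.4, and no SMAD was listed in shNAT10. The SMAD2 and SMAD4 peaks were weak, with peak-calling p-values of 0.0068 and 0.041 and an FDR of 0.055 and 1.0, and the values of SMAD4 were listed at 97 other genes. Of all gene identifiers, 25.8% were listed in shNC only. BMP1 was the only 1 of 8 genes of the astacin list with a differential peak, and 2 of the 8 had any listed peak. In the IGF lists, IGF2 and INS-IGF2 were 2 of 4 ligand genes, 2 of 10 binding proteins had a differential peak, and 0 of 11 receptors and adaptors and 0 of 3 IGF2 mRNA binding proteins did. Any listed peak was found for 2 ligand genes, 2 binding proteins, 5 receptors or adaptors and 0 IGF2 mRNA binding proteins.

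Of the 29 modulators, 14 had a listed peak and 8 a differential peak, where 36.9% of all identifiers with a listed peak had a differential one. The 14 may be too low, since identifiers without a differential peak were named by position and not always found. Nothing is therefore read from the 8 against that share. FST, the activin antagonist follistatin, had a 3′-UTR peak listed in shNAT10 only, with a fold enrichment of 55.8. Its relative FSTL3 had 32.1 at such a peak, also in shNAT10 only, and another FSTL3 peak was listed in both, with 27.6 in shNC and 36.3 in shNAT10. FSTL1 had a peak of 18.2 and the BMP antagonist NBL1 one of 9.31, both in shNC only. Antagonists were thus listed in either condition. The latent TGF-β binding protein LTBP3 had 3.59 in shNC and 8.81 in shNAT10 at its differential peak, with a further peak of 27.0 in shNAT10 only. The differential peak of LTBP4 was listed in shNAT10 only, at 11.3, but another LTBP4 peak at chr19:40629549-40629788 was listed in both conditions, with 58.0 in shNC and 6.97 in shNAT10. ID1 and ID3, inhibitors of differentiation that BMP signalling induces, had peaks in both lists: 263 in shNC and 106 in shNAT10 for ID1, and 26.6 and 39.7 for the 3′-UTR peak of ID3. A further shNAT10 peak of ID1, at 28.3, lay within the bounds of the same differential peak. A CDS peak of ID3 had 4.6 in shNC only. IGFBP3, the main IGF carrier of the circulation, had shNC peaks of 84.3 and 1.87 within its differential peak. Its shNAT10 peak of 19.2 reached over both, so the shNC values stood above and below it. The differential peak of IGFBP7 had 8.44 in shNC only. Another IGFBP7 peak was listed in both, with 62.8 in shNC and 17.6 in shNAT10. Across these 10 genes, 11 differential peaks divided into 4 listed in shNC only, 3 in shNAT10 only and 4 in both, beside 32.2%, 27.3% and 40.4% of all differential peaks. At the level of genes, 15 of the 38 pathway genes with any peak (39.5%) were listed in shNC only, 5 (13.2%) in shNAT10 only and 18 (47.4%) in both, beside 25.8%, 26.0% and 48.2% of all 6723 gene identifiers. Several of the genes listed in shNC only, SMAD2 and SMAD4 among them, had just a peak with an FDR above 0.05. The genes listed in shNAT10 only had no such peak. Nothing is therefore read from the larger share in shNC.

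**Figure D3:**
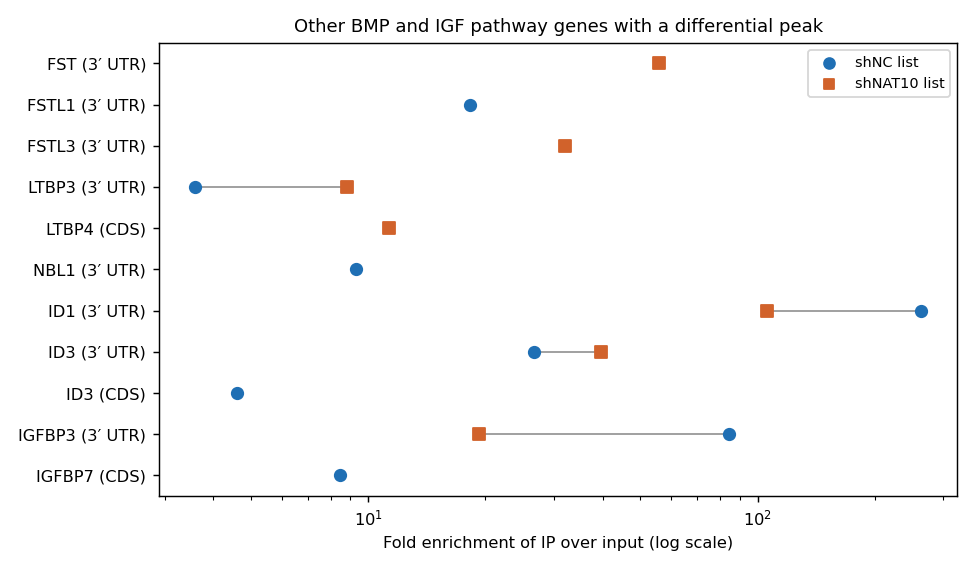
Fold enrichment of IP over input (log axis) in the shNC list (blue circles) and the shNAT10 list (orange squares) at the differential peaks of the 10 other pathway genes, with the region class in brackets. A grey line joins values of 1 place listed in both conditions, as for LTBP3, ID1, ID3 and IGFBP3. Single symbols are peaks listed in 1 condition. Where a list had more than 1 peak at the place (ID1 in shNAT10, IGFBP3 in shNC), only the higher value is drawn.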

How the data were processed

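Per the submitters' processing notes, cutadapt 2.5, HISAT2 2.1.0, featureCounts 1.6.3 and HOMER 4.10.4 were used with GRCh38 (hg38). The peak caller and the scaling between libraries are not given in the sources used here. The deposited lists of the authors hold, for each peak, a linear ratio of IP to input (the fold enrichment), a p-value as a score and the log10 of its FDR. The authors' table of differential peaks adds the region class and the number of motif sites per peak. Its columns of the authors' own comparison (log2 fold change, p and FDR) were not used. The members and gene lists were chosen with earlier results of these data known.

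Peaks were matched by overlap of exonic blocks (at least 1 nt, same strand) in Python 3.11.15 with pandas 2.3.3 and numpy 2.4.6, with figures from matplotlib 3.10.9. The overlap step was tested on simulated data. Named genes were the 5 members, genes overlapping their peaks, NAT10, and pathway genes with a differential peak, besides marker genes and the ligands and SMADs stated as named after their values were seen. Symbols came from identifiers paired in the table, or else from a position inside 1 RefSeq gene, which gave the paired symbol for 93.3% of the 4246 peaks where both were known. Ends of genes are RefSeq's (GRCh38.p14). The listed motif positions were checked on promoter sequence, where the motif stood at 25 of 27.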

Additional observations from a re-analysis of the deposited data

How the results depend on the processing

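With 1 IP and 1 input library for shNC and for shNAT10, neither a test nor a paired analysis between them was possible. Of 21 alternatives, 17 gave counts within 1.5 times those reported. The other 4, given below, include counts beyond that limit and median percentiles, to which the limit for counts was not applied. When a gene with any peak in both lists counted as listed in both, only 1 of the 5 genes, BMP7, had a shNAT10 peak only, in place of 3. The median percentile of the 19 listed peaks within their list was 60.1 by fold enrichment, 78.4 over the 14 peaks with 1 exonic block ranked among such peaks, and 49.9 by the p-value of the peak. When overlap had to reach 50% of both peaks, 4 pairs remained and 1 was at least 2 times higher in shNC, in place of 2, and BMP1 joined the genes with a shNAT10 peak only. At a peak FDR of at most 1e-10 in both lists, 3 genes again had a shNAT10 peak only, but they were BMP1, BMP7 and GDF15, since the IGF2 peak did not reach that limit. The ratios of pairs and the stricter limit for the pathway lists, under which 11 of 16 genes stayed, were chosen after seeing the data.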
